A study of Mus musculus with 8 samples.

Results

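The genes described here are the nuclear-encoded genes of oxidative phosphorylation, measured in mouse CD45+ cells from gliomas and from normal brain. They were chosen by symbol alone: every gene whose symbol starts with Nduf (complex I), Sdh (complex II), Uqcr (complex III), Atp5 (complex V), or Cox followed by a digit from 4 to 8 (complex IV). This gave 97 of the 31053 genes in the count tables, under 96 symbols, since Atp5o stands under 2 Ensembl identifiers and the second of these (ENSMUSG00000116933) held 0 UMIs. Although the working name was subunits, 12 of the symbols are assembly factors (the Ndufaf and Sdhaf genes), and Ndufa4 and Ndufa4l2 were placed with complex IV, where the Ndufa4 protein is found. The 96 symbols comprised 44 of complex I, 8 of complex II, 8 of complex III, 20 of complex IV and 16 of complex V. All 97 identifiers were found in the mouse annotation, on 19 chromosomes, and none lay on the mitochondrial chromosome.

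Oxidative phosphorylation couples the oxidation of NADH and succinate to the synthesis of ATP in the inner mitochondrial membrane. Complexes I and II pass electrons to ubiquinone, complex III passes them to cytochrome c, complex IV passes them to oxygen, and complex V uses the proton gradient to make ATP. Complex II is wholly nuclear-encoded; the other complexes are built from nuclear and mitochondrial gene products. In macrophages, reliance on respiration or on glycolysis is known to vary with activation.

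The glioma group was CD45+ cells magnetically sorted from tumours of glioma-bearing mice, and the control group was CD45+ cells sorted in the same way from normal brain. Both groups had 4 labelled samples. Strain, age, sex, genotype, the glioma cells used and the day of collection are not given in the sources used here. Droplet libraries of 3' transcript ends were sequenced, and unique molecular identifiers (UMIs) were counted. Each group's samples were pooled in 1 count table with no map from barcodes to samples, so each group counts as 1 library, no difference between groups could be tested, and every interval below covers counting error only.

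The glioma library held 159689787 UMIs and the control library 124023146. Barcodes with at least 1000 UMIs and at most 10% mitochondrial UMIs numbered 11049 in glioma, with a median of 11332 UMIs, and 13680 in control, with a median of 6842. Ptprc, which encodes CD45, had a UMI in 89.5% of the glioma barcodes and 73.0% of the control barcodes. Cells were put in classes by marker UMIs and are called by their gate: a class needed at least 3 UMIs from at least 2 of its markers, and at least 3 times the UMIs of every other marker list. In glioma 5622 barcodes (50.9%) passed no gate, against 1011 (7.39%) in control, and 3864 of the glioma ones met the macrophage limits but also carried UMIs of the neutrophil list, which includes Il1r2. The libraries shared 50 barcode sequences with at least 1000 UMIs in both. Border-associated, endothelial, keratin-expressing and other classes passed the gates as well; Ptprc stood at 7.0 CPM (counts scaled to 1000000 UMIs of a class) in the keratin class and 24.1 CPM in the endothelial class, against 337 CPM in glioma macrophages.

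Promoter sequences are shown for genes on which the results turn: the 3 genes of the ATP synthase c subunit, whose mature proteins are identical and which differed in their ratios between glioma macrophages and control microglia, then Atp5k (subunit e of complex V) and Cox5a (subunit 5a of complex IV), which were among the members with the largest ratios in that comparison. Each line holds the 150 bases before the RefSeq transcript start on build GRCm38.p6, written 5′ to 3′ on the gene's strand, with a matched motif in capitals.

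Atp5g3, chr2:73911327-73911476, minus strand: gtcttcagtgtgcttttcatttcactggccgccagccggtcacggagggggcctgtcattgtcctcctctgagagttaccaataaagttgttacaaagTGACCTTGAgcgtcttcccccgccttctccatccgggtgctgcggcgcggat
Atp5g1, chr11:96075632-96075781, minus strand: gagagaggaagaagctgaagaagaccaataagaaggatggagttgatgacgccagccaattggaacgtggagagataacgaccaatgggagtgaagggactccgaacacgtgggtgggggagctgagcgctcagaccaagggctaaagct
Atp5g2, chr15:102671048-102671197, minus strand: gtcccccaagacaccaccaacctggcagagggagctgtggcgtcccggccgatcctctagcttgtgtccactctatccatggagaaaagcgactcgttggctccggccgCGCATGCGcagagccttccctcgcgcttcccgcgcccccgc
Atp5k, chr5:108434400-108434549, minus strand: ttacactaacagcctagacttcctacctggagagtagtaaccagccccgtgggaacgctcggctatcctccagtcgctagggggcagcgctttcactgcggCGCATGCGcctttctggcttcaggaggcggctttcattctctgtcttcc
Cox5a, chr9:57521082-57521231, plus strand: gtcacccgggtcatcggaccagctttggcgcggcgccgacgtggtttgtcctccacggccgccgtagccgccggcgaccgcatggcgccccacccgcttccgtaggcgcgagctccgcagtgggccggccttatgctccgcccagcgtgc

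The capitals mark the ERR sequence TCAAGGTCA, read on the opposite strand in Atp5g3 with its first base 52 bases before the start, and the NRF1 core CGCATGCG, first base 41 bases before the start in Atp5g2 and 49 in Atp5k. The windows printed for Atp5g1 and Cox5a held none of the searched letters. Of the 96 symbols, 80 matched the RefSeq promoter table (2 by synonym), and 5 motifs were searched on both strands from 250 bases before to 50 after the start, with no overlap between motifs. The NRF1 core, a palindrome, stood in 11 of 80 members (13.8%) and in 2.07% of 27025 genes. AAGATGGCG (YY1) stood in 8 members (10%) and 1.64% of genes, CCGGAAGT (ETS or GABP) in 5 members (6.25%) and 4.31% of genes, TCAAGGTCA (ERR) in 2 members (2.50%) and 0.466% of genes, and the TATA box TATAAA in 8 members (10%) and 15.7% of genes. Among the matched members, the NRF1 core stood in 8 of the 52 that were at least 1.5-fold higher in glioma macrophages than in control microglia and in 3 of the 28 others. These matches are letters in a window, not measured binding.

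Since 3' UMIs are not scaled to length, CPM levels are compared between classes and not between genes. Most glioma classes stood in a narrow range, and control microglia stood low. In glioma the summed level was 22669 CPM in the keratin class (82 barcodes, led by Krt13 and Krt76), 20948 in dendritic cells (272), 20601 in T cells (1152), 20566 in monocytes or macrophages (3101), 19482 in NK cells (96), 17265 in the neutrophil gate (636) and 14773 in microglia (34). In control it was 16955 in endothelial cells (119), 15965 in T cells (46), 13308 in B cells (39), 11246 in microglia (12240), 10675 in border-associated macrophages (47) and 10600 in neutrophils (60). Of the 12 other classes, 10 lay above control microglia. Among these, the control endothelial class had 0 of its 5 markers and 0 of any other list among its leading genes by fold. The plan was to compare a class only where its own markers outnumbered those of any other list there. The counting intervals of control border-associated macrophages (10355 to 11003) and control neutrophils (10317 to 10890) overlapped each other, and those of glioma T cells (20518 to 20685) and glioma macrophages (20524 to 20608) did as well. The free RNA of near-empty droplets held 17652 CPM in glioma and 19332 CPM in control, so the control free RNA stood above every control class. With free RNA subtracted at a fixed 10%, control microglia stood at 10273 CPM and control T cells at 15497 CPM. Under the same setting glioma microglia stood at 14398 CPM and glioma macrophages at 20843 CPM. The share of free RNA in each class was not measured, so its part in the class levels was not tested.

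**Figure D1:**
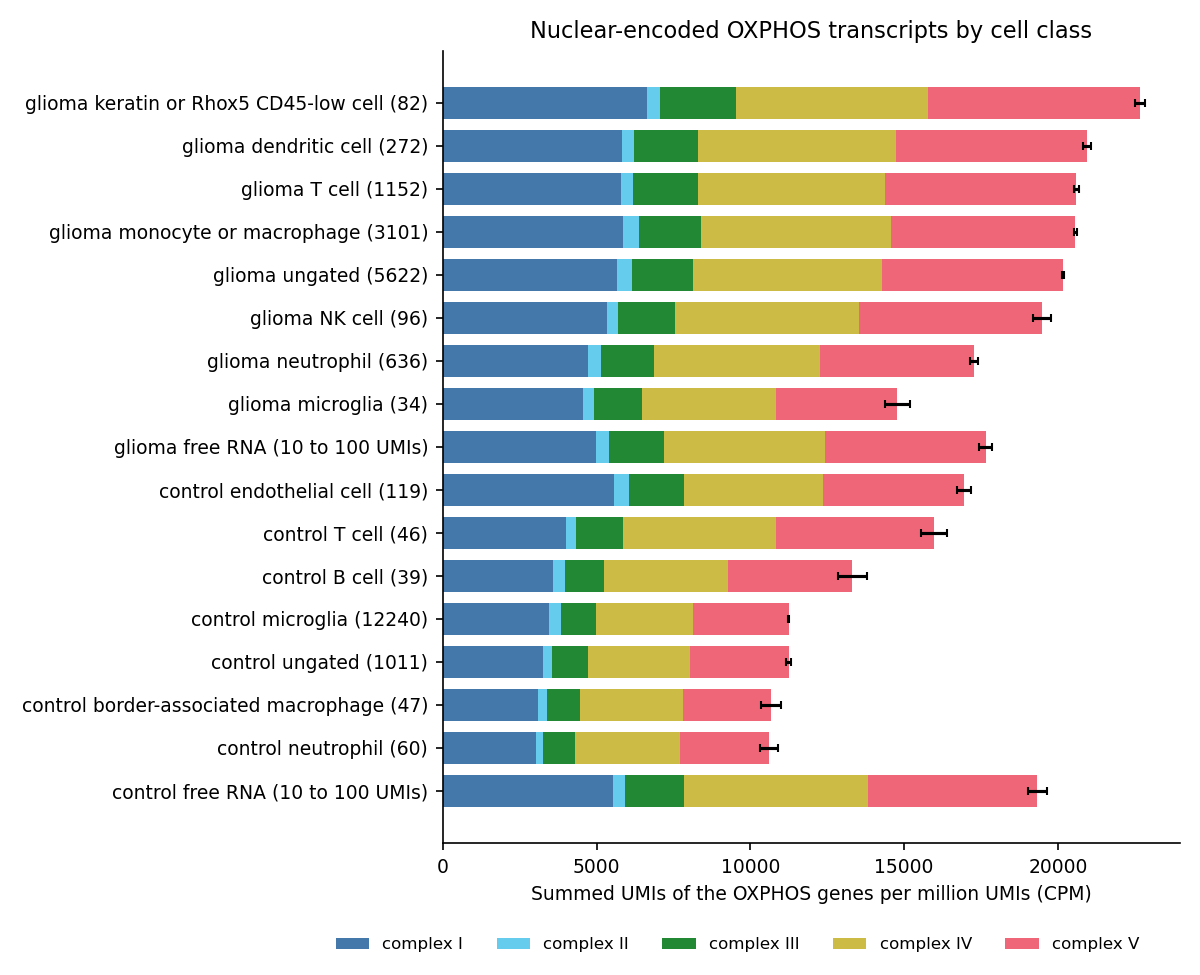
Summed UMIs of the nuclear-encoded OXPHOS genes (x axis, CPM) in each gated class with at least 30 barcodes, in ungated barcodes and in free RNA, stacked by complex; barcode counts are in brackets and bars give exact 95% Poisson intervals of the sum. Glioma classes run from 14773 to 22669 CPM, and control microglia stand at 11246 CPM.

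Single barcodes showed the spread behind these sums. The members took a median of 1.92% of a barcode's UMIs in glioma macrophages (10th to 90th percentile 1.32 to 2.66%) and 1.08% in control microglia (0.59 to 1.47%), so the macrophage median lay above the 90th percentile of microglia. Uqcrh, the hinge protein of complex III, lay between 821 CPM in glioma T cells and 244 CPM in control border-associated macrophages. Cox4i1, the general isoform of subunit 4, ranged less, between 1074 CPM in glioma macrophages and 562 CPM in control border-associated macrophages. In complex V, Atp5g1 ranged between 477 CPM in the glioma keratin class and 68.0 CPM in control neutrophils. In complex II, Sdhb, the iron-sulphur subunit, ranged between 137 CPM in glioma macrophages and 55.9 CPM in control border-associated macrophages, and in complex I, Ndufa13 ranged between 486 CPM in glioma NK cells and 183 CPM in control border-associated macrophages.

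The widest contrast set the most frequent class of each library side by side, glioma monocytes or macrophages against control microglia, in which cell class and library cannot be told apart. The summed level was 20566 CPM in glioma macrophages and 11246 CPM in control microglia, a ratio of 1.83. The macrophage gate held only 29 control barcodes, under the limit of 30, with 14398 CPM of members (interval 13929 to 14878). Of the 93 members that reached 20 UMIs in the combined sums, 62 were at least 1.5-fold higher in macrophages, where 21.6% of all such genes were, and 3 were at least 1.5-fold lower, where 43.7% of all genes were. The median log2 ratio of the members was 0.80, while genes with at least 100 UMIs had a median of -0.31. Ribosomal protein genes held 187642 CPM in macrophages and 138448 CPM in microglia, and the nuclear RNA Malat1 held 11524 CPM in macrophages and 24827 CPM in microglia; their part in the result was not tested.

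The difference was uneven within the complexes. In complex I, 22 of 29 accessory subunits were at least 1.5-fold higher in macrophages (median log2 ratio 0.93), but only 2 of 7 nuclear core subunits, which carry the redox centres (median 0.25). Ndufb6, an accessory subunit of the membrane arm, stood at 129 CPM in macrophages and 41.0 CPM in microglia (log2 ratio 1.66, 95% interval 1.60 to 1.72). Ndufs1, the largest core subunit, stood at 28.6 CPM in macrophages and 30.5 CPM in microglia (log2 ratio -0.09). Among the 12 assembly factors of complexes I and II, 4 were higher and 1 lower, with a median of 0.13.

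Complex II had the smallest median, with 3 of 8 members higher and a median of 0.18 on the log2 scale. Sdhaf2, which helps attach the flavin to Sdha, stood at 50.8 CPM in macrophages and 16.8 CPM in microglia (log2 ratio 1.59), while Sdha itself, the flavoprotein, stood at 81.8 CPM in macrophages and 94.2 CPM in microglia. In complex III, 5 of 8 members were higher: Uqcr10 stood at 291 CPM in macrophages and 99.9 CPM in microglia, and Uqcrq at 415 CPM in macrophages and 147 CPM in microglia. The core proteins did not share this difference, since Uqcrc1 stood at 108 CPM in macrophages and 109 CPM in microglia, and Uqcrc2 at 89.3 CPM in macrophages and 94.2 CPM in microglia.

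Complex IV had the largest median, 1.13, with 13 of 17 members higher and 1 lower. Cox5a stood at 670 CPM in macrophages and 134 CPM in microglia (log2 ratio 2.33, interval 2.30 to 2.36), and its partner Cox5b at 509 CPM in macrophages and 159 CPM in microglia (1.68). Cox4i1, with 1074 CPM in macrophages and 630 CPM in microglia, had a smaller ratio (0.77), and Ndufa4 hardly differed, at 177 CPM in macrophages and 187 CPM in microglia (-0.07). In complex V, 14 of 16 members were higher and 1 lower. Atp5k and Atp5l, subunits e and g near the dimer interface, stood at 234 and 631 CPM in macrophages, against 73.1 and 232 CPM in microglia.

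The 3 c-subunit genes, whose promoters are printed above, parted. Atp5g3 (chr2:73908447-73911326, minus strand, GRCm38) stood at 255 CPM in macrophages and 58.4 CPM in microglia (log2 ratio 2.13, interval 2.08 to 2.18). Atp5g1 stood at 363 CPM in macrophages and 139 CPM in microglia (1.39), and Atp5g2 at 434 CPM in macrophages and 406 CPM in microglia (0.10). Thus Atp5g2 was nearly level between the classes while the other 2 genes for the same mature protein were higher in macrophages.

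The members lower in macrophages were Cox6a2, Ndufaf7 and Atp5s. Cox6a2, the striated-muscle isoform of subunit 6a, had 51 UMIs in macrophages (1.14 CPM) and 781 in microglia (8.94 CPM), a log2 ratio of -2.96. Ndufaf7 (chr17:78937136-78948052, plus strand), an assembly factor of complex I, stood at 6.09 CPM in macrophages and 27.6 CPM in microglia (log2 ratio -2.18, interval -2.36 to -2.0). Atp5s, named as a coupling factor of ATP synthase, stood at 2.19 CPM in macrophages and 6.18 CPM in microglia (-1.49). Cox7a2l, which links complexes III and IV in supercomplexes, was lower without passing 1.5-fold, at 361 CPM in macrophages and 486 CPM in microglia (-0.43).

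**Figure D2:**
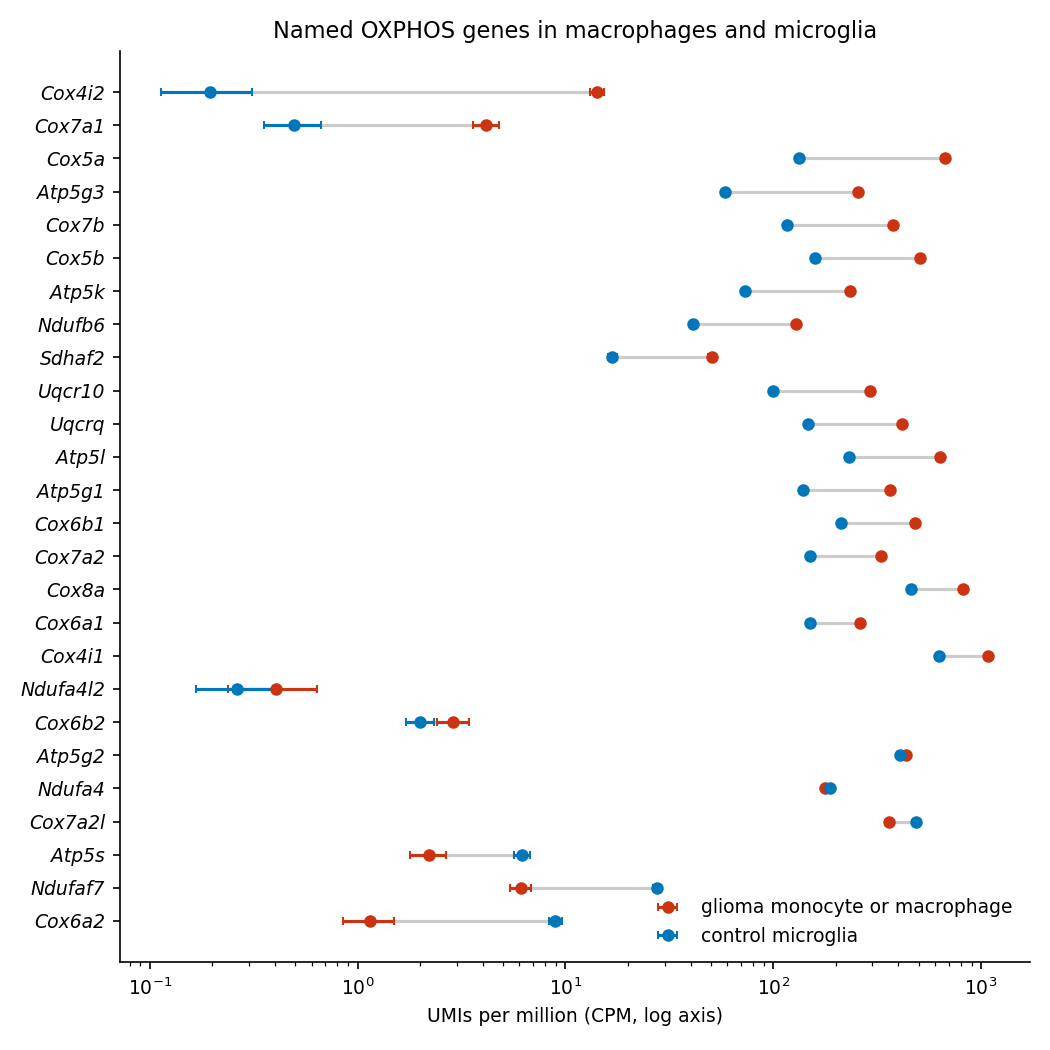
CPM (log axis) of the named OXPHOS genes in glioma monocytes or macrophages and in control microglia, sorted by ratio; bars are exact 95% Poisson intervals. Cox4i2 has the largest ratio (14.2 against 0.19 CPM), and Cox6a2, Ndufaf7 and Atp5s lie on the other side.

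The 13 mitochondrially encoded subunits of the same complexes did not follow. Their sum was 42892 CPM in macrophages and 36790 CPM in microglia, with 4 higher, 4 lower and a median log2 ratio of 0.07; the 10% limit on mitochondrial UMIs bounds this sum. Mitochondrial over nuclear-encoded UMIs came to 2.09 in macrophages and 3.27 in microglia. Of the fixed lists beside the members, 12 of 14 glycolytic genes were higher and 1 lower (median 1.57), as were 44 and 1 of 78 mitochondrial ribosomal protein genes (0.62), 4 and 1 of 13 tricarboxylic acid cycle genes (0.25), 4 and 1 of 15 complex IV assembly genes (0.26), and 5 and 2 of 8 electron carriers and inhibitors (0.88). Of 9 regulators of mitochondrial biogenesis 1 was higher, Ppargc1b (2.19), and 2 were lower, with a median of -0.27.

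The same microglia gate in both libraries held 34 glioma barcodes (351320 UMIs) and 12240 control barcodes. The summed members stood at 14773 CPM in glioma microglia and 11246 CPM in control microglia, a log2 ratio of 0.39 (interval 0.35 to 0.43). At this depth 28 of 92 members (30.4%) were at least 1.5-fold higher, near the 31.0% of all genes, and 7 were lower, where 29.6% of all genes were. Each log2 ratio adds 0.5 UMI to both sums, which weighs more in the smaller glioma sum. A gene with few control UMIs can thus count as higher with 0 UMIs in glioma microglia. The 28 and the 31.0% can both hold such genes, so their nearness does not show whether members were in excess. Counting only genes whose interval also lay above 0, 24 members (26.1%) were higher, against 6.37% of all genes. Genes with few UMIs have wide intervals and seldom pass this rule. The shares of members and of all genes were not matched for UMIs, so they cannot be compared directly. Median-ratio scaling sets the median of genes with at least 100 UMIs (-0.25 here) to 0, which lifts every ratio. The median of all tested genes was -0.0014 before it. With this scaling 48 of 92 members were higher, where 38.7% of all genes were. How the count stood against all genes thus depended on the scaling. Among members with more than a few UMIs, Atp5g3 had the largest ratio, at 125 CPM (44 UMIs) in glioma microglia and 58.4 CPM in control microglia (log2 ratio 1.12, interval 0.64 to 1.53). Ndufs6 stood at 134 CPM in glioma and 69.3 CPM in control microglia, Ndufb9 at 216 CPM in glioma and 113 CPM in control, and Cox5b at 305 CPM in glioma and 159 CPM in control.

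By complex the counts were thin: of the 9 complex IV members counted as higher in glioma microglia, Cox7a1, Cox6a2, Cox6b2 and Ndufa4l2 had between 0 and 5 UMIs there. The 3 lower members of complex II were the assembly factors Sdhaf1, Sdhaf3 and Sdhaf4, with 1, 1 and 5 UMIs in glioma microglia. The complex II subunits Sdha (-0.12), Sdhb (0.32), Sdhc (0.23) and Sdhd (0.22) had log2 ratios whose intervals held 0. Members that were lower with an interval below 0 were Ndufaf7 (2 UMIs in glioma, log2 ratio -1.95), Sdhaf1 (1 UMI in glioma, -2.39), Uqcrc2 (48.4 CPM in glioma and 94.2 CPM in control, -0.92) and Ndufa9 (31.3 CPM in glioma and 61.4 CPM in control, -0.91). Atp5s had 0 UMIs in glioma microglia, which allows 8.54 CPM, and 6.18 CPM in control, so no difference was detectable at this depth. The mitochondrially encoded sum stood at 54791 CPM in glioma microglia and 36790 CPM in control microglia, with 7 of 13 genes higher. Macrophage markers summed to 93.9 CPM in glioma microglia and 9.0 CPM in control microglia, and microglia markers to 1420 CPM in glioma microglia and 6317 CPM in control microglia; their part in the result was not tested.

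T cells of both libraries passed 1 gate, with 1152 barcodes in glioma and 46 in control. Their summed members stood at 20601 CPM in the glioma T cells, against 15965 CPM in the control T cells (a log2 ratio of 0.37, interval 0.33 to 0.41). Of 90 members 23 were at least 1.5-fold higher (25.6%), near the 22.6% of all genes, and 2 lower, where 27.0% of all genes were. With an interval above 0 the count was 22 (24.4%), against 6.15% of all genes, again not matched for UMIs. Complex I accessory subunits (29 tested) made up 14 of the 23 members at least 1.5-fold higher, while no nuclear core subunit passed 1.5-fold. Ndufc1, a small membrane-arm subunit, stood at 118 CPM in glioma and 47.9 CPM in control T cells (log2 ratio 1.26), and Ndufb9 at 258 CPM in glioma and 113 CPM in control (1.18).

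The assembly factor Ndufaf4 had 211 UMIs in glioma T cells and 0 in control T cells, and was at least 2.18-fold higher against a floor of 3 UMIs in the control sum. Atp5g1 stood at 309 CPM in glioma and 149 CPM in control T cells (1.04), and Cox7a2l at 455 CPM in glioma and 676 CPM in control (-0.57, interval -0.76 to -0.38). The lower calls of Cox7a1 and Cox6b2 rest on 2 control UMIs each. The mitochondrially encoded sum was 34056 CPM in glioma and 43398 CPM in control T cells, so the nuclear-encoded and mitochondrially encoded sums differed in opposite directions. Microglia markers summed to 4.54 CPM in glioma T cells and 312 CPM in control T cells; their part in the result was not tested. Glycolytic genes had 9 of 14 higher and 1 lower (median 0.69), mitochondrial ribosomal protein genes 27 of 77 higher and 1 lower.

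**Figure D3:**
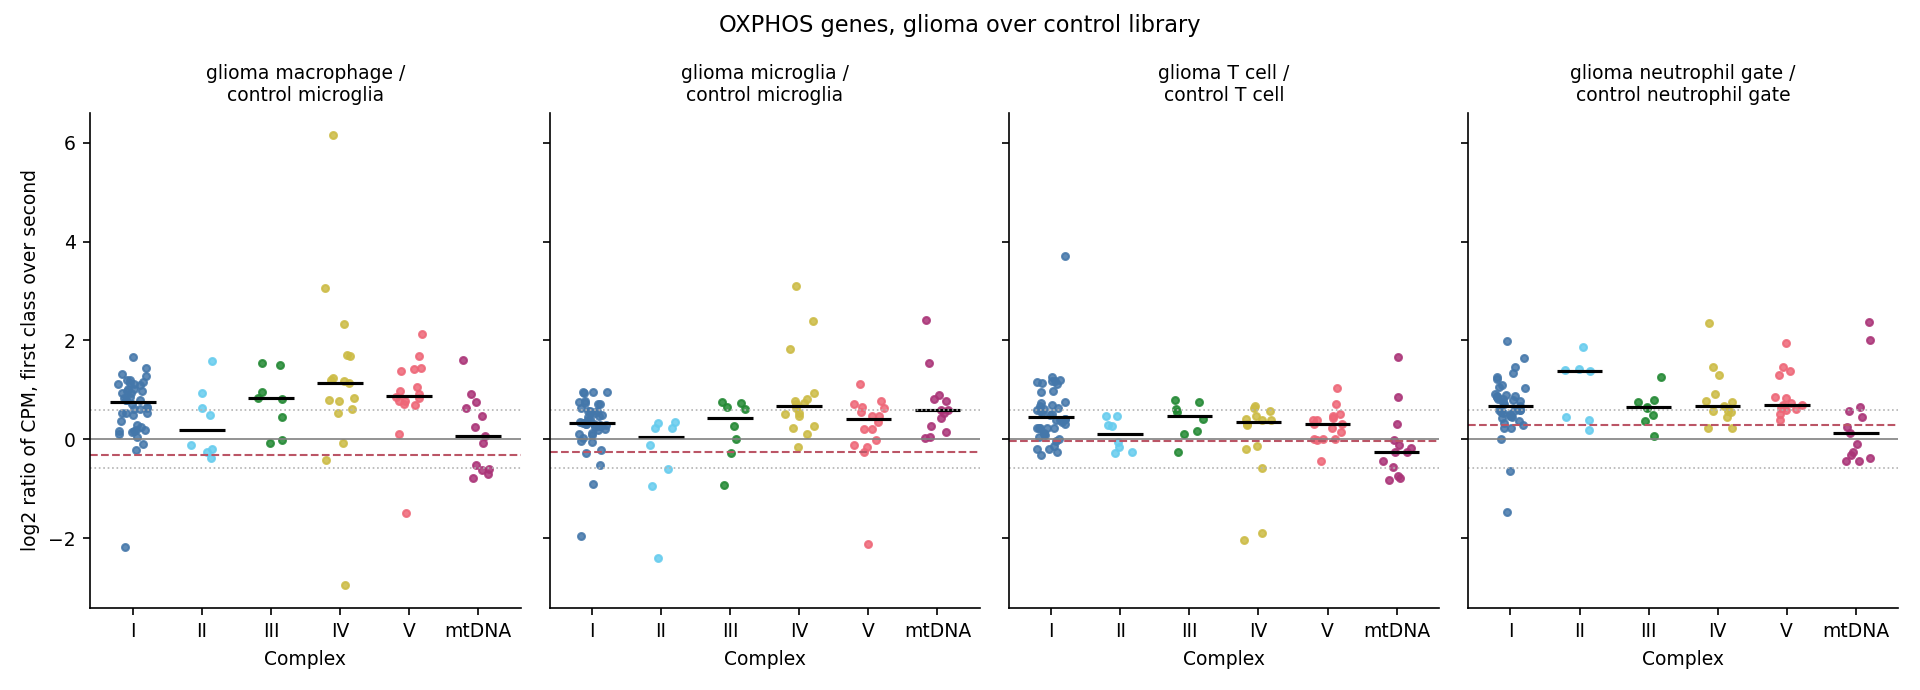
Log2 ratio of CPM (y axis, first class over second) of each OXPHOS gene with at least 20 UMIs, by complex, for 4 comparisons between the glioma and control libraries, beside the mitochondrially encoded subunits (mtDNA). Black lines are medians, dotted lines mark 1.5-fold and the dashed line is the median of all genes with at least 100 UMIs; most members of complexes I, III, IV and V lie above 0 in each panel.

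The neutrophil gate held 636 glioma and 60 control barcodes, and the members summed to 17265 CPM in the glioma gate, against 10600 CPM in the control gate (a log2 ratio of 0.70, interval 0.66 to 0.74). Of 86 members 55 were at least 1.5-fold higher, where 32.3% of all genes were, and 2 lower, where 20.3% of all genes were. With an interval above 0 the count was 50 (58.1%), against 18.3% of all genes, again not matched for UMIs. Atp5g1 stood at 268 CPM in glioma and 68.0 CPM in control (1.96), Cox5a at 466 CPM in glioma and 188 CPM in control (1.30), and Sdhaf2 at 62.2 CPM in glioma and 16.0 CPM in control (1.87). Ndufaf7 was lower here too, at 14.0 CPM in glioma and 38.0 CPM in control (-1.47, interval -2.20 to -0.62). Cox4i2 had 23 UMIs in glioma and 0 in control, and its 5.02 CPM in glioma lay under the 6.0 CPM that a count of 0 allows in control.

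This comparison turned with depth and with the marker list. Among barcodes of 2000 to 5000 UMIs the members stood at 8605 CPM in glioma (249 barcodes) and 9373 CPM in control (25), so glioma was the lower there. At 5000 to 10000 UMIs they stood at 15660 CPM in glioma (119) and 9066 CPM in control (13). The deepest glioma barcodes, at 20000 UMIs or more, held 23263 CPM of members but only 2266 CPM of neutrophil markers, against 13408 CPM of markers at 2000 to 5000 UMIs. Macrophage markers summed to 462 CPM in the glioma gate and 54.0 CPM in the control gate, and microglia markers to 13.1 CPM in the glioma gate and 1252 CPM in the control gate. Without Il1r2 in the list, an alternative chosen after the data were seen, the levels were 12503 CPM in glioma (403 barcodes) and 10559 CPM in control (56), and 14 of 81 members were higher and 3 lower, where 27.9% and 20.5% of all genes were. With the stricter gate 25 of 83 members were higher, where 29.3% of all genes were, and with the mean over barcodes 24 of 86, where 32.0% were, so the excess of higher members depended on the setting. The part of other cells in the gate was not tested.

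**Figure D4:**
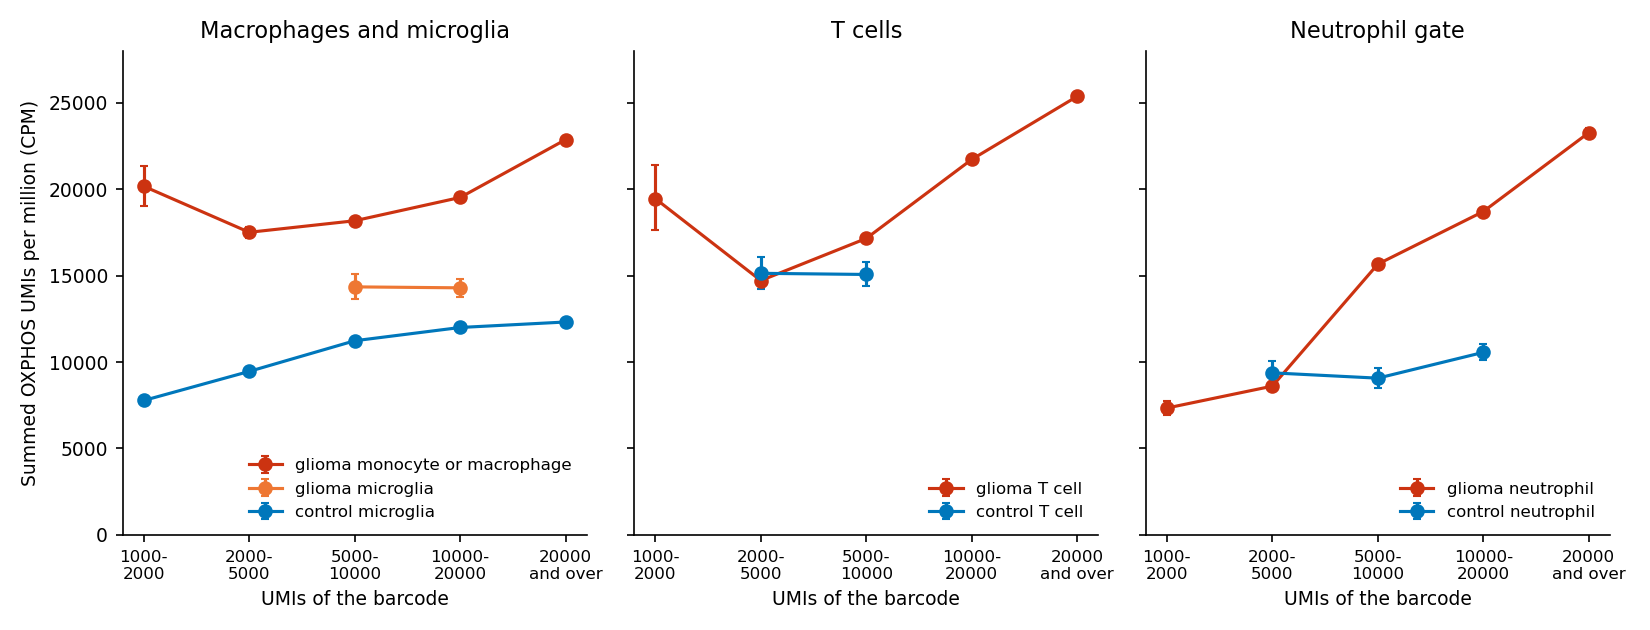
Summed OXPHOS UMIs (y axis, CPM) against the UMIs of the barcode (x axis, bins) for macrophages and microglia, T cells and the neutrophil gate; bars are exact 95% Poisson intervals and bins with under 10 barcodes are left out. Control microglia and the glioma neutrophil gate climb with depth over the bins drawn. Glioma T cells stand at 19448 CPM at 1000 to 2000 UMIs (15 barcodes) and lower, at 14710 CPM, at 2000 to 5000 UMIs. From that bin they climb to 25366 CPM at 20000 or more. At 2000 to 5000 UMIs the neutrophil-gate values are 8605 CPM in glioma and 9373 CPM in control.

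Depth moved with the members' level in some of the other classes and not in others: control T cells held 15130 and 15063 CPM in the 2 bins below, while control microglia held 7775 CPM at 1000 to 2000 UMIs and 12314 CPM at 20000 or more. At 5000 to 10000 UMIs the members stood at 18169 CPM in glioma macrophages (835 barcodes), 14345 CPM in glioma microglia (14) and 11230 CPM in control microglia (6955), the same order as over all barcodes. At that depth 52 of 92 members were higher and 8 lower in macrophages than in control microglia, where 19.2% and 46.3% of all genes were. T cells of 2000 to 5000 UMIs held 14710 CPM in glioma (250) and 15130 CPM in control (17), so glioma T cells were not the higher at that depth. At 5000 to 10000 UMIs T cells held 17147 CPM in the glioma library (517) and 15063 CPM in the control library (19). The part of depth in these results was not tested.

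Within the glioma library the macrophages themselves varied. Barcodes with at least 3 UMIs of Arg1, an arginase of tumour and repair macrophages, and none of Cxcl9 (438) were set against barcodes with at least 3 UMIs of Cxcl9, an interferon-induced chemokine, and none of Arg1 (893). The members summed to 17176 CPM in Arg1 macrophages and 22930 CPM in Cxcl9 macrophages, a log2 ratio of -0.42. Of 92 members 1 was at least 1.5-fold higher in Arg1 macrophages, where 10.4% of all genes were, and 20 (21.7%) lower, where 16.7% of all genes were; the members' median was -0.44, while genes with at least 100 UMIs had a median of -0.10. How the count of lower members stood against all genes depended on the setting. It was 31 of 92 without Rpl, Rps and mt- genes in the totals, where 19.0% of all genes were lower, and 31 of 92 with free RNA subtracted, where 19.4% were. It was 12 of 92 with median-ratio scaling, where 13.2% of all genes were lower, and 9 of 82 at 5000 to 10000 UMIs, where 13.9% were.

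The members with the largest ratios came from several complexes. Ndufa4 stood at 111 CPM in Arg1 macrophages and 228 CPM in Cxcl9 macrophages (log2 ratio -1.04, interval -1.17 to -0.92). Cox5a stood at 465 CPM in Arg1 and 801 CPM in Cxcl9 macrophages (-0.78), Uqcr10 at 206 CPM in Arg1 and 347 CPM in Cxcl9 macrophages (-0.75), Sdhb at 98.0 CPM in Arg1 and 162 CPM in Cxcl9 macrophages (-0.72), and Atp5b, the catalytic beta subunit, at 415 CPM in Arg1 and 672 CPM in Cxcl9 macrophages (-0.70). The only member called higher, Cox7a1, the heart and muscle isoform of subunit 7a, had 31 UMIs in Arg1 and 52 in Cxcl9 macrophages (0.78, interval 0.08 to 1.44).

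The mitochondrially encoded sum was lower as well, 34784 CPM in Arg1 and 47350 CPM in Cxcl9 macrophages, with a median of -0.48 but no gene past 1.5-fold. Of 13 tricarboxylic acid cycle genes 4 were lower (median -0.46), of 77 mitochondrial ribosomal protein genes 15 were lower (-0.44), and of 14 glycolytic genes 2 were higher, among them the glucose transporter Slc2a1 (0.78), with a median of 0.39. Median depth was 10872 UMIs in Arg1 and 16277 UMIs in Cxcl9 macrophages. At 5000 to 10000 UMIs the members stood at 16390 CPM in Arg1 (154) and 19899 CPM in Cxcl9 macrophages (168), so the order of the sums held within that depth, with a smaller members' median of -0.28. Near the limits, 464 of the 3101 macrophage barcodes had at least 3 UMIs of both genes, 458 had 1 or 2 Arg1 UMIs and 531 had 1 or 2 Cxcl9 UMIs.

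Cycling macrophages (389 barcodes with at least 3 UMIs from at least 2 of 7 cell-cycle genes) held 23659 CPM of members and non-cycling ones (1991, with none) 19432 CPM, a log2 ratio of 0.28. Of 92 members 10 (10.9%) were at least 1.5-fold higher, below the 19.1% of all genes, and 1 lower, where 7.82% of all genes were, so the call counts show no excess of members. By ratio 85 of the 92 lay above 0. The members' median was 0.33, while genes with at least 100 UMIs had a median of 0.15. Median depth was 23359 UMIs in cycling and 10887 UMIs in non-cycling macrophages, and its part in the result was not tested. Cox6a2 had 31 UMIs in cycling and 9 in non-cycling macrophages (3.11), Cox4i2 stood at 22.6 CPM in cycling and 10.6 CPM in non-cycling macrophages (1.10), and Atp5o, the stalk subunit OSCP, at 373 CPM in cycling and 242 CPM in non-cycling macrophages (0.62). Of the assembly factors, 4 of 12 were higher, Ndufaf2, Ndufaf5, Ndufaf6 and Sdhaf3. At 10000 to 20000 UMIs the sums were 21955 CPM in cycling (115) and 19322 CPM in non-cycling macrophages (892).

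The neutrophil gate was also set against macrophages inside the glioma library. Members summed to 17265 CPM in the neutrophil gate and 20566 CPM in macrophages (log2 ratio -0.25). Of 92 members 1 was at least 1.5-fold higher, Ndufaf7, where 16.1% of all genes were, and 8 lower, where 22.4% of all genes were. Ndufaf7 stood at 14.0 CPM in the neutrophil gate and 6.09 CPM in macrophages (1.21). Cox6a2 had 0 UMIs in the neutrophil gate and 51 in macrophages, at least 1.74-fold lower against a floor of 3 UMIs, and Cox4i2 stood at 5.02 CPM in the neutrophil gate and 14.2 CPM in macrophages (-1.47). The count of lower members depended on the setting: with the stricter gate it was 54 of 92, where 34.6% of all genes were lower. Without Il1r2 in the list 71 of 93 members were lower, where 40.6% of all genes were, and the summed log2 ratio was -0.71.

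**Figure D5:**
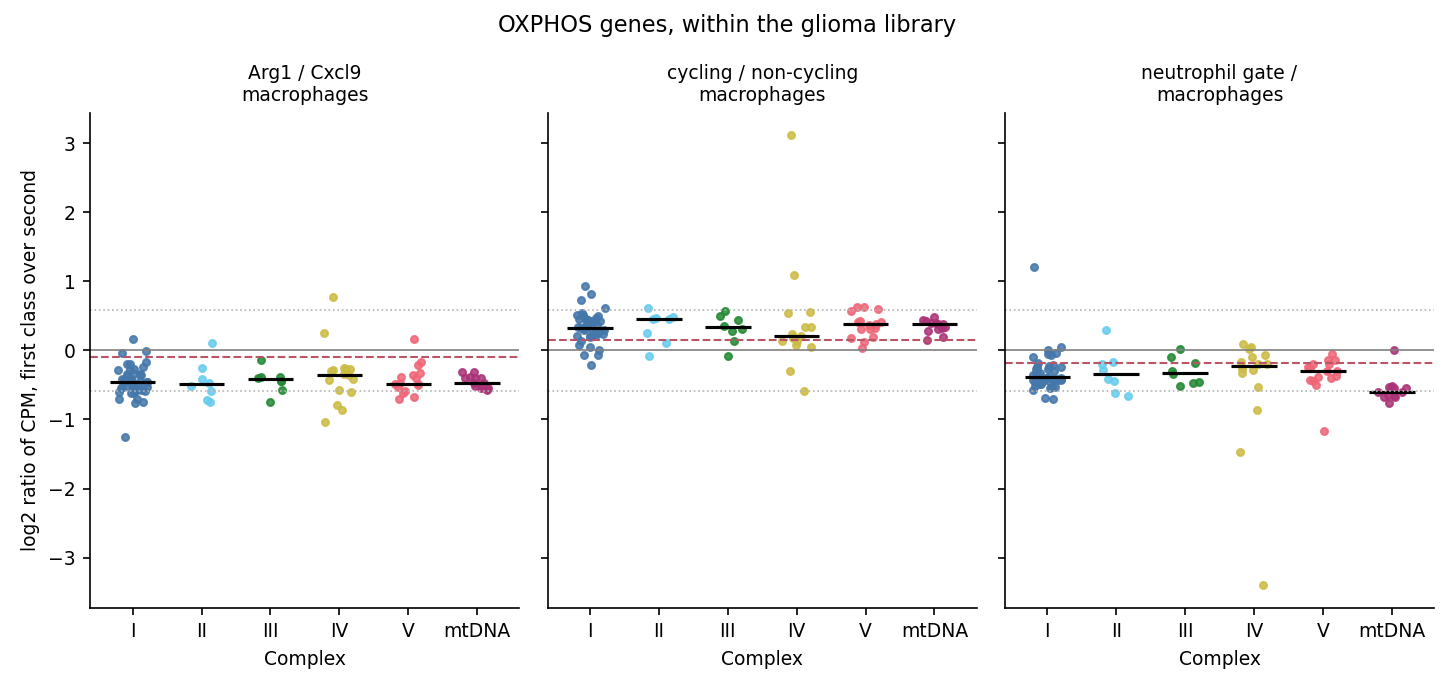
Log2 ratio of CPM (y axis, first class over second) of each OXPHOS gene by complex, with the mitochondrially encoded subunits (mtDNA), for 3 comparisons within the glioma library; lines as in the plot between libraries. The Arg1 over Cxcl9 ratios centre on -0.44, and the cycling over non-cycling ratios on 0.33.

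Isoforms of complex IV that are known from other tissues were scarce and uneven. Cox4i2 (chr2:152754173-152765037, plus strand), the lung-enriched isoform of subunit 4 that is induced by low oxygen, had 634 UMIs in glioma macrophages, in 352 of 3101 barcodes, and 17 UMIs in control microglia. Its level was 14.2 CPM in glioma macrophages and 0.19 CPM in control microglia (log2 ratio 6.15, interval 5.50 to 6.98). Glioma T cells of the same library had 8 Cox4i2 UMIs in 6 of 1152 barcodes (0.70 CPM), and glioma dendritic cells 0.88 CPM, while glioma free RNA held 9.31 CPM from 15 UMIs. Median depth was 13236 UMIs in glioma macrophages and 7490 UMIs in glioma T cells. Glioma microglia had 0 UMIs, which allows 8.54 CPM. The 10 control pericyte or smooth muscle barcodes, a class under the limit of 30 and looked at after its values were seen, held 255 CPM, in 8 of 10.

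Cox6a2 was highest in plasmacytoid dendritic cells, also under that limit: 795 CPM in 22 of 27 glioma barcodes and 994 CPM in 5 of 5 control barcodes. In control microglia its 781 UMIs lay in 586 of 12240 barcodes. Ndufa4l2, a relative of Ndufa4 induced by low oxygen, stood at 434 CPM in control pericyte or smooth muscle barcodes (9 of 10) and 18.6 CPM in control endothelial cells. It had 0.40 CPM in glioma macrophages and 0.26 CPM in control microglia, with an interval of the log2 ratio that held 0 (-0.36 to 1.57). Cox7a1 stood at 4.16 CPM in glioma macrophages and 0.49 CPM in control microglia (3.07, interval 2.60 to 3.59).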

How the data were processed

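CD45+ cells of 4 glioma and 4 control samples were profiled with Chromium 3' kits (version 2 or 3) on an Illumina HiSeq X instrument, per the labels' protocols. The authors deposited 1 unfiltered table per group, whose values are counts of UMIs by gene and barcode with no scaling. Per the file headers the tables were written by Cell Ranger; per the submitters' processing notes the tools were Cell Ranger 3.0.2, STAR and Seurat 3, and the builds GRCh38 and mm10. Which steps gave the tables, strand and the treatment of reads shared with processed pseudogenes, which many of these genes have, are not given in the sources used here; such reads could lower or split counts. The number of value columns set aside was 0.

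From the counts, barcodes with at least 1000 UMIs and at most 10% mt- UMIs were kept and gated with 18 marker lists. Barcodes with markers of 2 classes fail the gate; no doublet caller was run. UMIs were summed per class and given as CPM. Log2 ratios add 0.5 UMI to each sum, and their 95% intervals are exact conditional binomial; those of CPM are exact Poisson. UMIs limit PCR duplication, but intervals and floors (3 UMIs) cover counting error only. A difference of 1.5-fold was counted among genes with at least 20 UMIs over both sums. The smaller sums (351320 UMIs of glioma microglia, 355224 of control T cells) set the precision of their comparisons. Free RNA was taken from barcodes of 10 to 100 UMIs.

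With 1 pooled library per group no test was run. The class minimum, set at 50 barcodes, was lowered to 30 after the counts were seen; under 50 the glioma microglia and T cell comparisons and the levels of control border-associated macrophages and B cells have no value. The order of leading genes (those in at least 25% of a class's barcodes, against the rest of its library) was also chosen after seeing the data. Members and lists were chosen with earlier results of these data known. Named were up to 12 higher and 12 lower members with the largest ratios per comparison, the isoform pairs, and in the levels the 3 highest and the widest-ranging member of each complex; of these the text gives those with most UMIs. Ndufs1, Sdha, Uqcrc1 and Uqcrc2 were added after their values were seen, as members of their complexes that did not pass 1.5-fold. Scripts (Python 3.11.15, numpy 2.4.6, scipy 1.17.1, pandas 2.3.3) were tested on simulated data. Gene coordinates are from GENCODE M21 (GRCm38, the build also called mm10), and promoters from RefSeq.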

Additional observations from a re-analysis of the deposited data

How the results depend on the processing

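All comparisons were repeated under 14 alternatives, of which 11 were planned and 3 (a looser gate, barcodes of 5000 to 10000 UMIs, a neutrophil list without Il1r2) were chosen after seeing the data. The summed and median log2 ratios kept their sign in every alternative that gave a value; the summed ratio of macrophages against control microglia ran between 0.69 and 1.18, and that of the neutrophil gate against control neutrophils between 0.24 and 0.84. Of the call counts, 155 stayed within 1.5 times the main count and 42 did not. The cause was not tested, except that fewer barcodes or genes enter some alternatives by construction.

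Higher calls that moved were as follows, with the share of all genes called under the same setting in brackets. For the neutrophil gate against control neutrophils the 55 became 25 of 83 with the stricter gate (29.3%) and 14 of 81 without Il1r2 (27.9%). It became 24 of 86 both with the mean over barcodes (32.0%) and with median-ratio scaling, where the share of all genes was lower (22.03%). For glioma microglia the 28 became 48 with median-ratio scaling (38.7%). For cycling macrophages the 10 became 4 with median-ratio scaling (13.9%) and 5 without Il1r2 (17.3%). For Arg1 macrophages the 1 became 2 with the mean over barcodes (11.3%) and without Il1r2 (9.26%), and 0 at a gene minimum of 100 UMIs (8.02%). For the neutrophil gate against macrophages the 1 became 2 at 5000 to 10000 UMIs (15.3%). The 10 classes above control microglia became 6 of the 7 others left at 5000 to 10000 UMIs.

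Lower calls that moved were as follows, with the share of all genes called lower under the same setting in brackets. For the neutrophil gate against macrophages the 8 became 54 with the stricter gate (34.6%) and 66 with the mean over barcodes (43.8%). It became 71 without Il1r2 (40.6%) and 4 with median-ratio scaling (14.6%). Without the 5% deepest barcodes it was 23 of 92, near the share of all genes (27.0%). For Arg1 macrophages the 20 became 31 without Rpl, Rps and mt- genes in the totals (19.0%) and 31 with free RNA subtracted (19.4%). It became 12 with median-ratio scaling (13.2%) and 9 at 5000 to 10000 UMIs (13.9%). For macrophages against control microglia the 3 became 5 with no gene minimum (50.1%) and 8 at 5000 to 10000 UMIs (46.3%). For T cells the 2 became 4 at 5% mt- UMIs (29.0%), with the mean over barcodes (27.9%) and with no gene minimum (46.7%). It became 1 with the stricter gate (28.1%) and 0 at 100 UMIs (21.1%). For the neutrophil gate against control neutrophils the 2 became 1 at 2000 UMIs per barcode (20.4%), at 5% mt- UMIs (20.7%) and with the stricter gate (19.2%). It was also 1 without Rpl, Rps and mt- genes (16.5%) and without the 5% deepest barcodes (20.2%), and 0 at 100 UMIs (14.2%). For cycling macrophages the 1 became 2 with no gene minimum (11.7%) and 0 with the stricter (7.36%) and the looser gate (7.65%). It was also 0 without Rpl, Rps and mt- genes (7.28%), at 100 UMIs (6.03%) and without shared barcodes (7.62%). The count was 0 again without the 5% deepest barcodes (8.21%) and without Il1r2 (6.20%).

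Median-ratio scaling moved all ratios by 0.31 for macrophages against microglia, 0.25 for glioma microglia and -0.29 for the neutrophil gate against control neutrophils. Named genes changed sign in 6 cases: Ndufa4l2 in macrophages against microglia (-0.53) and Ndufa9 in glioma microglia (0.049) with the mean over barcodes, Cox6a2 in glioma microglia (-0.12) without the 5% deepest barcodes, Atp5g2 in the neutrophil gate against control (-0.017) without Il1r2, and Ndufa9 (0.030) and Sdhaf3 (0.97) in the neutrophil gate against macrophages at 5000 to 10000 UMIs. Another 295 values of named genes moved beyond their interval and 1831 did not. At 5000 to 10000 UMIs the glioma microglia, T cell, control neutrophil and cycling comparisons could not be given, since a class fell under 20 barcodes. No paired analysis was possible because the samples of a group are pooled with no map from barcodes to samples.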
